A study of Mus musculus with 6 samples.

Results

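The 4 genes described are those of the beta subunits Atp1b1, Atp1b2 and Atp1b3 of the sodium-potassium ATPase and of its cardiac regulator phospholemman, Fxyd1. They were chosen by name and are 4 of the 17447 gene rows of the deposited count table. The study compared wild-type mouse hearts in chronic kidney disease (CKD), brought about by a 2-step removal of most kidney tissue, with hearts of wild-type mice that had sham surgery without removal of kidney tissue. Whole-heart total RNA was sequenced in 3 CKD and 3 Sham samples with 1 batch label. The sources used here give no strain, age or sex of the mice, no time of sampling, and no statement that each sample is a separate animal. The levels below come from the 3 Sham hearts alone.

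The sodium-potassium ATPase exports sodium and imports potassium at the cost of ATP, and so keeps the sodium gradient that drives the electrical activity of the heart and calcium removal by the sodium-calcium exchanger. Its alpha subunit carries the catalytic cycle and the binding site of cardiotonic steroids, which are reported to be raised in uraemia. Its beta subunit is a glycoprotein needed for the folding of the alpha subunit and its transport to the membrane. Phospholemman is a small membrane protein that restrains the pump in cardiomyocytes until it is phosphorylated by protein kinases A and C.

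The promoters of the 3 members that are in the RefSeq promoter table are shown because the members differ widely in level and no peptide sequence was at hand. Each window runs from 250 bases before the annotated start to 50 bases after it, on build GRCm38.p6, which is not the mm9 build named for the counts. Capitals mark matches on either strand to 3 short motifs of promoters. The first motif is TATANA. The second, known for binding of Sp1, is GGGCGG. The third, known for binding of the factor NF-Y, is CCAAT.
Atp1b1, chr1:164458306-164458605, minus strand: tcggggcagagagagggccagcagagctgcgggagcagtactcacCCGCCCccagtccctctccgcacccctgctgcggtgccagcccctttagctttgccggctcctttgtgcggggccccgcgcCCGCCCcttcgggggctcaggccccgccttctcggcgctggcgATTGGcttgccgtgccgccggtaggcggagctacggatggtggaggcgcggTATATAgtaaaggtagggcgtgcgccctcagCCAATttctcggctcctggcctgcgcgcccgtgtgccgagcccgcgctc
Fxyd1, chr7:31054804-31055103, minus strand: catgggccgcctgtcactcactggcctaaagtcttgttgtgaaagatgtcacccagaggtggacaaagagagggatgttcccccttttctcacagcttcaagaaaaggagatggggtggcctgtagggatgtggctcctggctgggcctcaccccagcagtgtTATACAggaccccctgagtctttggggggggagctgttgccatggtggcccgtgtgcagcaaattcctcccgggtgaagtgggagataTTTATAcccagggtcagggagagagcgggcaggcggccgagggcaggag
Atp1b3, chr9:96364382-96364681, minus strand: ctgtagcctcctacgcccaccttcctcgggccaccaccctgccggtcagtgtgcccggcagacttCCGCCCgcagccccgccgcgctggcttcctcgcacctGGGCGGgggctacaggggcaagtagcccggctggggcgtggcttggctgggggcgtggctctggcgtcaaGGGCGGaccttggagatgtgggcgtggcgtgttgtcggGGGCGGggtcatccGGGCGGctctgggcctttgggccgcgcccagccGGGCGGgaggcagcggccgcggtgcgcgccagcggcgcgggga
The Atp1b1 window held 1 TATANA site, beginning 30 bases before the start, with 2 sites of GGGCGG and 2 of CCAAT. The Fxyd1 window held 2 TATANA sites and none of the other letters. Of these, 1 began 87 bases before the start and 1 just after it, on the opposite strand. Neither lay at the distance of the Atp1b1 site. The Fxyd1 window had a GC content of 58.7%, against 71.0% for Atp1b1 and 76.0% for this Atp1b3 window. The Atp1b3 window held 6 GGGCGG sites and neither of the other letters. A further listed start of Atp1b3, at chr9:96363666-96363965, held none of the 3. Among 32851 promoter windows of this length in the table, 24.7% held TATANA, 35.7% GGGCGG and 37.4% CCAAT. These are matches of letters and not sites of binding.

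Before any level was read, the CKD columns were tested for whether their values match their gene labels. Across all rows, Spearman's rho was 0.984 to 0.987 for the 3 pairs of CKD columns and 0.982 to 0.985 for the 3 pairs of Sham columns, but -0.0586 to -0.0528 for the 9 pairs of a CKD with a Sham column. The 15 ventricular cardiomyocyte markers summed to 2227 to 2504 CPM (the count divided by its column's total and multiplied by 1000000) in the CKD columns, against 137710 to 153772 CPM in the Sham columns. Of these 15 markers, 6 had at most 3 counts in every CKD column, against 0 in the Sham columns. The row labelled Fxyd1 held 6, 6 and 2 counts in the CKD columns and 3700, 3638 and 3914 in the Sham columns. Under the label Atp1b1 stood 145, 101 and 169 counts for CKD, against 4339, 4788 and 5659 for Sham. Under Atp1b2 stood 614, 542 and 730 for CKD, against 377, 317 and 421 for Sham. Under Atp1b3 stood 1244, 1459 and 1543 for CKD, against 766, 709 and 953 for Sham. Since the values and the gene labels of the CKD columns did not correspond, no CKD value was read as a level of a pump gene and no test of CKD against Sham was made. Column totals were 11717426 to 12222637 counts in CKD and 10474487 to 12669724 in Sham.

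In the Sham hearts, all 3 beta subunit members and phospholemman were well above the limit of detection, and each had a coefficient of variation under 10%. Atp1b1 was the main beta subunit and Atp1b3 the next, while Atp1b2 was the lowest of the 3. Fxyd1 was the leading member of its family. Intervals given per heart are exact Poisson 95% intervals, and, like the other intervals here, they cover counting error alone.

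Atp1b1 encodes beta1, the widespread beta isoform that pairs with alpha subunits in heart muscle. Its level was 414 CPM in Sham 1, 457 CPM in Sham 2 and 447 CPM in Sham 3, a mean of 439 ± 22.5 CPM (SD, n = 3), higher than 98.3% of all rows or equal to them. Sham 1 was the lowest heart, with an interval of 402 to 427 CPM that lay apart from the 444 to 470 CPM of Sham 2. The coefficient of variation (CV) was 5.12%, against 1.42% from counting alone, and rows within 2-fold of its level had a median CV of 7.40%. In GENCODE M21, 575 exon bases of Atp1b1, or 18.7% of its merged exons, overlap Nme7 on the opposite strand. Nme7 itself had 41, 35 and 50 counts in the 3 hearts, and the sources used here do not say whether the counting used strand, so reads of this overlap cannot be assigned to either gene.

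Atp1b3 encodes beta3, a broadly expressed isoform. Its level was 73.1, 67.7 and 75.2 CPM in Sham 1, 2 and 3, a mean of 72.0 ± 3.88 CPM (SD, n = 3) at percentile 86.2 of all rows. The intervals of the 3 hearts overlapped, from 62.8 CPM at the lower end for Sham 2 to 80.2 CPM at the upper end for Sham 3. Of the 50-base stretches of its annotated transcripts, 9.71% also occur in Gm1848, which has no row in the table, so that its level is uncertain by reads that could have gone to either.

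Atp1b2 encodes beta2, first described as an adhesion molecule on glia. Its level was 36.0, 30.3 and 33.2 CPM, a mean of 33.2 ± 2.85 CPM (SD, n = 3) at percentile 71.7. Sham 2 was the lowest heart, but its interval of 27.0 to 33.8 CPM overlapped the 32.4 to 39.8 CPM of Sham 1. Counting alone gives a CV of 5.19% at this depth, against the 8.61% seen. The 10 Schwann and glial markers summed to 95.1, 79.4 and 84.1 CPM, also highest in Sham 1 and lowest in Sham 2. Of these 10, 8 averaged at least 1 CPM and 0 had no count. Taken singly, those 8 were divided. Sham 1 held the top value for 5 of them, Sham 2 for 2 and Sham 3 for 1. The bottom value fell in Sham 2 for 4, in Sham 1 for 2 and in Sham 3 for 2. This order of sums was not particular to glia. The 11 atrial markers (4941, 1349 and 1835 CPM) and the 8 kidney tubule markers (5.34, 3.34 and 3.47 CPM) had it too. Of the 11 atrial markers, 9 were highest in Sham 1 and 9 lowest in Sham 2. The fibroblast, endothelial and macrophage sums were also lowest in Sham 2, but highest in Sham 3. The part of these cell types in the level of Atp1b2 was not tested. In whole hearts, fewer cells of a type and less RNA per cell cannot be told apart.

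Fxyd1 stood at 353 CPM in Sham 1, 347 CPM in Sham 2 and 309 CPM in Sham 3, a mean of 336 ± 24.0 CPM (SD, n = 3) at percentile 97.7. Sham 3 was the lowest heart, and its interval of 299 to 319 CPM lay apart from the 342 to 365 CPM of Sham 1 and the 336 to 359 CPM of Sham 2. The CV of 7.13% was close to the 7.28% median of rows within 2-fold of its level. No 50-base stretch of its annotated transcripts occurred in a GENCODE M21 transcript of another gene, and no exon of another gene overlapped it. The same holds for Atp1b2.

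**Figure D1:**
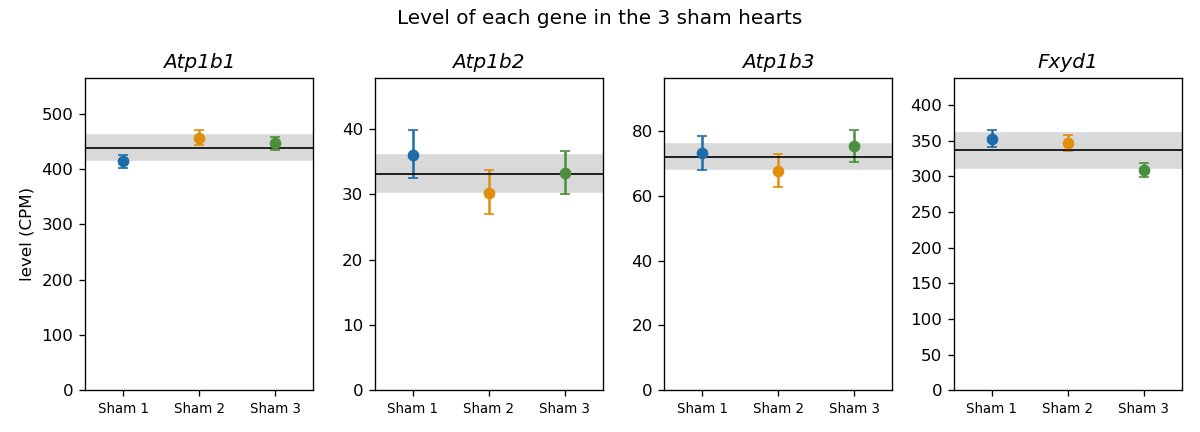
Level in CPM (vertical axis, from 0) of each gene in the 3 Sham hearts. Points are single hearts with exact Poisson 95% intervals, the line is the mean and the grey band 1 SD on either side. Atp1b1 is lowest in Sham 1 at 414 CPM and Fxyd1 lowest in Sham 3 at 309 CPM.

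The order of the hearts depended on the scaling. With the trimmed mean of M values (TMM), Atp1b1 was at 406, 479 and 435 CPM and Fxyd1 at 346, 364 and 301 CPM, so that Sham 2 rather than Sham 1 was the highest heart for Fxyd1. Set against 1000 counts of the 15 ventricular markers, Atp1b1 gave 2.94, 2.97 and 3.24 counts and Fxyd1 gave 2.51, 2.26 and 2.24. On that scale Sham 3 was the highest heart for Atp1b1, while Sham 2 and Sham 3 were level for Fxyd1. No order of hearts is therefore read for these 2 genes. The spread also depended on the scaling, with CVs under TMM of 8.34% for Atp1b1, 5.75% for Atp1b2, 1.65% for Atp1b3 and 9.65% for Fxyd1.

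Among the beta subunits, Atp1b1 took 79.1%, 82.4% and 80.5% of the beta counts in Sham 1, 2 and 3, a mean of 80.7% ± 1.61 (SD, n = 3). Exact binomial 95% intervals were 78.1% to 80.2% in Sham 1 and 81.3% to 83.3% in Sham 2. Atp1b3 took 14.0%, 12.2% and 13.6% (mean 13.2% ± 0.929), and Atp1b2 took 6.88%, 5.45% and 5.99% (mean 6.11% ± 0.720). The share of Atp1b1 was highest in Sham 2, the heart in which the shares of both others were lowest. Atp1b4, a muscle protein of the family that in placental mammals acts at the nuclear envelope and not in the pump, had 0 counts in each heart, which allows at most 0.286 CPM. With 3 counts as the limit for a 0, it also allows at most 0.0547% of the beta counts. The exact binomial interval reached up to 0.0673% in Sham 1.

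Counts grow with transcript length, so the genes were also compared per kilobase of the APPRIS principal transcript in GENCODE M21. On this scale Atp1b1 stood at 160, 177 and 173 CPM per kb (mean 170 ± 8.72, SD, n = 3), Atp1b3 at 36.7, 33.9 and 37.7 (mean 36.1 ± 1.95) and Atp1b2 at 12.7, 10.6 and 11.7 (mean 11.7 ± 1.00). The groups of values did not overlap, and Atp1b1 was 4.73 ± 0.438 times Atp1b3, itself 3.10 ± 0.181 times Atp1b2. The shares became 78.1% ± 1.71 for Atp1b1, 16.6% ± 1.13 for Atp1b3 and 5.36% ± 0.623 for Atp1b2. The order of the beta subunits was the same per kb of merged exons, where Atp1b1 took 78.8%, and per kb of coding sequence, where it took 79.4%.

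**Figure D2:**
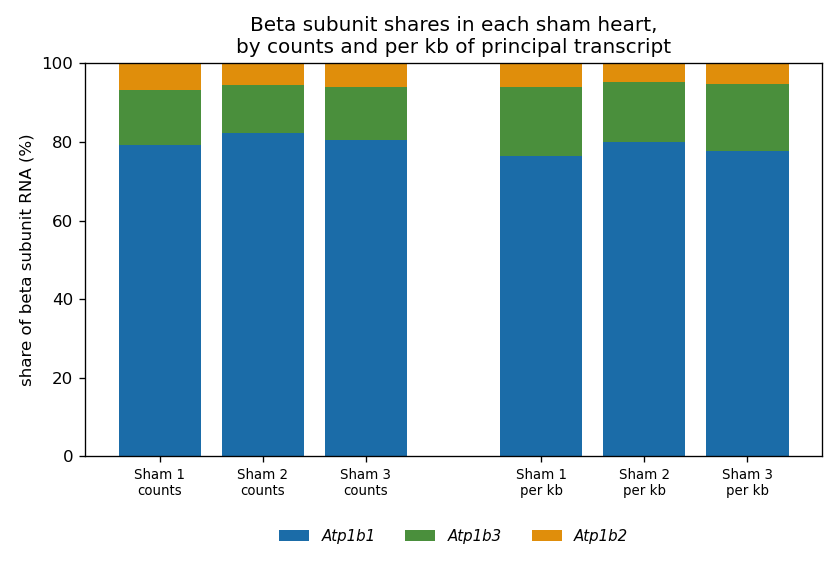
Share of each isoform (vertical axis, percent) among beta subunits in the 3 Sham hearts, by counts and per kb of principal transcript. Atp1b1 takes 76.5% to 82.4% of the bars on either scale, and Atp1b4 has no bar since it had 0 counts.

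Phospholemman led the FXYD family, small single-span regulators of the pump that differ by tissue. Fxyd1 took 81.5%, 89.6% and 79.3% of the FXYD counts in Sham 1, 2 and 3 (mean 83.5% ± 5.43, SD, n = 3), and 91.9% ± 2.58 per kb of principal transcript. Of the 6 FXYD genes with a row, 3 averaged at least 10 CPM, Fxyd1, Fxyd5 and Fxyd6, a share near the 50.8% of all rows. Fxyd2, the gamma subunit of kidney, had 25, 29 and 21 counts. Fxyd7, a brain member, had 4, 3 and 4 counts, and Fxyd3 had 2, 0 and 1. Fxyd3 also shares 42.5% of its merged exons with Lgi4 on the opposite strand.

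Fxyd5 and Fxyd6 varied far more between the hearts than Fxyd1. Fxyd5, known as dysadherin, had 29.9, 17.8 and 31.3 CPM, and Fxyd6, also named phosphohippolin, had 47.2, 19.6 and 47.5 CPM. In both, Sham 2 was the lowest heart and the other two were close together. Their CVs of 28.2% and 42.1% exceeded those of 92.9% and 97.2% of rows within 2-fold of their level. The 10 fibroblast markers, all with a row and none at 0, summed to 2101, 1065 and 2411 CPM and each of them was lowest in Sham 2. The 10 macrophage markers summed to 610, 489 and 780 CPM and the 10 endothelial markers to 1685, 1468 and 1857 CPM, again lowest in Sham 2. The 11 atrial markers summed to 4941, 1349 and 1835 CPM, highest in Sham 1 and also lowest in Sham 2, where 9 of them were lowest. The 10 smooth muscle and pericyte markers summed to 4451, 4546 and 4593 CPM. That sum was lowest in Sham 1, although 6 of the 10 were lowest in Sham 2. A low Sham 2 was thus shared by several lists. The part of these cell types in the levels of Fxyd5 and Fxyd6 was not tested.

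**Figure D3:**
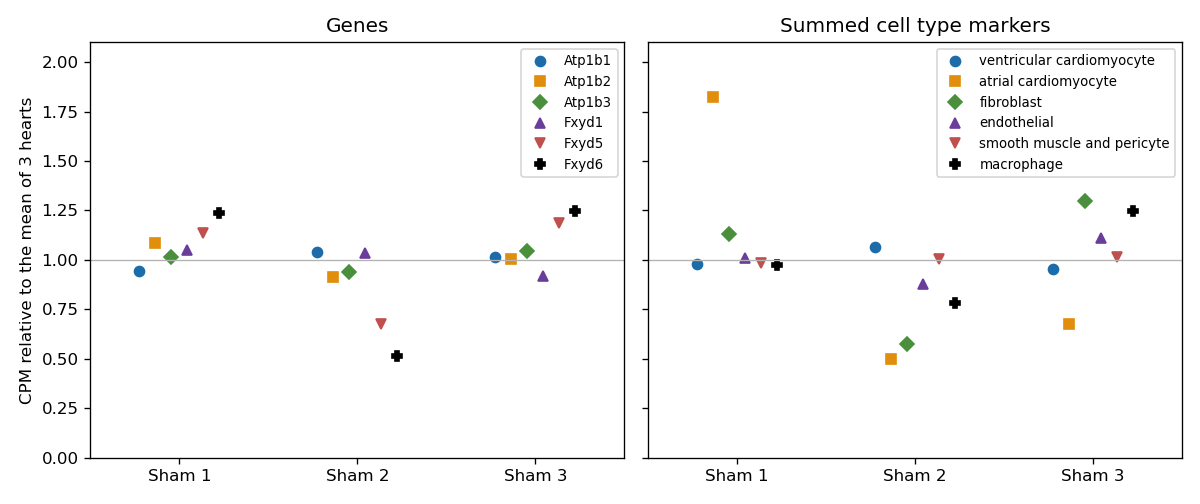
CPM in each Sham heart relative to the mean of the 3 hearts (vertical axis), for single genes (left) and for summed cell type markers (right). Fxyd5 and Fxyd6 fall below the mean in Sham 2, as do the fibroblast markers at 1065 CPM, while the 3 beta subunits and Fxyd1 stay near 1 in every heart.

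The level of Fxyd1 against the pump subunits rested on the length chosen for it. By counts there were 0.675, 0.626 and 0.557 Fxyd1 counts for each beta count in Sham 1, 2 and 3 (mean 0.619 ± 0.0595, SD, n = 3). The principal Fxyd1 transcript is 620 bases long, whereas its merged exons cover 2186 bases over 17 annotated transcripts. Per kb of principal transcript Fxyd1 stood at 569, 560 and 498 CPM per kb (mean 543 ± 38.7), which was 3.20 ± 0.336 times Atp1b1 and 2.49 ± 0.239 times the beta sum. Per kb of merged exons it was 1.20, 1.07 and 0.975 times Atp1b1, so that these neighbours in level did not differ beyond the spread between hearts on that scale. Sham 1 had the highest of the 3 ratios to the beta sum and Sham 3 the lowest on each scale. The lengths are the same in every heart, so they could hardly change this order.

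**Figure D4:**
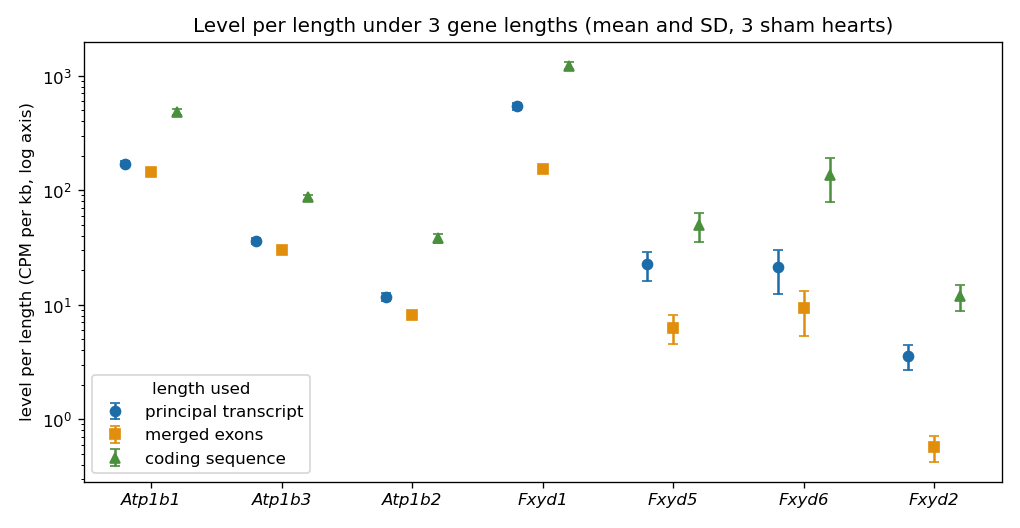
Level per length in CPM per kb (vertical log axis; mean and SD over 3 Sham hearts) of pump genes under 3 lengths: principal transcript, merged exons and coding sequence. The beta subunits keep their order under each length, whereas Fxyd1 stands at 543 CPM per kb of principal transcript and 154 CPM per kb of merged exons.

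The enzymes that act on phospholemman were well represented. Of 11 listed kinase and phosphatase genes, 10 averaged at least 10 CPM, against 50.8% of all rows, and their median was 130 CPM against 10.5 CPM for all rows. Prkaca, a catalytic subunit of protein kinase A, had 332, 344 and 308 CPM. Its regulatory subunit gene Prkar1a was the highest of the list at 633 ± 90.6 CPM (SD, n = 3), while Prkar2a averaged 130 ± 12.3 CPM and the catalytic subunit gene Prkacb 81.2 ± 4.76 CPM. Prkca, the protein kinase C isoform alpha, had 42.9, 28.9 and 46.1 CPM, lowest in Sham 2. Prkce, another protein kinase C isoform, averaged 53.8 ± 2.94 CPM. Ppp1ca and Ppp1cb, catalytic subunits of protein phosphatase 1, averaged 255 ± 13.4 and 456 ± 34.4 CPM (SD, n = 3). The third such subunit, Ppp1cc, averaged 85.7 ± 2.84 CPM, and Ppp2ca of protein phosphatase 2A averaged 260.3 ± 9.61 CPM. Ppp1r1a, which encodes an inhibitor of protein phosphatase 1, was the member under 10 CPM, with 23, 19 and 23 counts.

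Other carriers of sodium and partners of the pump were described from lists. Of 7 listed genes of sodium and coupled ion transport, 7 reached a mean of 10 CPM and 2 a mean of 100 CPM, levels that 50.8% and 9.73% of all rows reached. Slc8a1, the sodium-calcium exchanger that uses the gradient made by the pump, had 547, 605 and 468 CPM, highest in Sham 2. The summed ventricular markers had the same order by heart (140842, 153772 and 137710 CPM), and 12 of the 15 were highest in Sham 2. Their part in the level of Slc8a1 was not tested. Slc4a3, an anion exchanger, averaged 286 ± 41.4 CPM (SD, n = 3). The bicarbonate carrier Slc4a4 averaged 35.7 ± 5.41 CPM, the sodium-potassium-chloride carrier Slc12a2 30.6 ± 2.60 CPM and the mitochondrial sodium-calcium exchanger Slc8b1 11.0 ± 2.11 CPM. The plasma membrane calcium pumps Atp2b1 and Atp2b4 averaged 74.1 ± 6.00 and 38.3 ± 7.88 CPM. Of 8 signalling and anchoring partners, 6 averaged at least 10 CPM, against the same 50.8% of all rows, among them the caveolins Cav1 at 374 ± 26.1 CPM and Cav3 at 65.8 ± 3.04 CPM and the anchor Ank2 at 183 ± 13.0 CPM. The related anchor Ank3 averaged 97.2 ± 3.18 CPM, the phospholipase Plcg1 71.2 ± 6.40 CPM and the calcium release channel Itpr2 30.3 ± 5.72 CPM. The kinase gene Src, which is reported to relay cardiotonic steroid signals from the pump, had 88, 39 and 104 counts, and Egfr had 107, 57 and 130. Both were lowest in Sham 2.

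Of 3 listed relatives of the pump, 2 had a row and were near absent, and Atp12a had no row. Atp4a and Atp4b, the subunits of the gastric proton pump, had 0, 0 and 1 counts and 0 counts in each heart. Of the 4 Nkain genes, whose products bind beta1, Nkain1 averaged 20.5 ± 4.89 CPM (SD, n = 3) and the other three were under 1 CPM. Nkain4 had 20, 1 and 5 counts. The sums of the atrial markers, the Schwann and glial markers and the 8 kidney tubule markers (5.34, 3.34 and 3.47 CPM) had the same order by heart. Of the 8 Schwann and glial markers at 1 CPM or more, 5 peaked in Sham 1 and 4 were lowest in Sham 2. Only 1 kidney tubule marker averaged at least 1 CPM, and it was highest in Sham 2 and lowest in Sham 1. The part of these cell types in the level of Nkain4 was not tested.

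The biological coefficient of variation (BCV), which edgeR estimates for each gene with the counting error taken out and with a pull towards genes of like level, was 15.2% for Atp1b1, 13.3% for Atp1b2, 12.5% for Atp1b3 and 15.6% for Fxyd1. The trend at the same levels was 18.1%, 16.3%, 15.7% and 18.2%. All 4 members lay below their trend, as did 80.6% of the genes that passed the filter, whereas Fxyd5 at 20.3% and Fxyd6 at 29.0% lay above it. Since 3 hearts carry 2 degrees of freedom, the estimates lean on the trend and exceed the plain CVs of the members.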

How the data were processed

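Whole-heart RNA of 3 CKD and 3 Sham mouse samples was sequenced. The authors deposited a single table of unnormalized counts, with a row for each symbol and a column for each sample. The submitters' processing notes name DESeq, HTSeq, HISAT2 and Trimmomatic and build mm9, and the sources used here give no versions, annotation or strandedness. Columns were matched to samples by name, and every row named a gene. CPM was the count over the column total. A gene at 0 was given a limit of 3 counts, between 0.237 and 0.286 CPM by Sham heart. Shares carry exact binomial and levels exact Poisson intervals (scipy 1.17.1). Lengths and overlaps came from GENCODE M21 on GRCm38, and no coordinate was joined to the counts. The BCV came from edgeR 4.0.16 in R 4.3.3, with filterByExpr (12014 rows passed, all 4 members among them), TMM and an intercept alone, and was tested on simulated data. DESeq2 1.42.0 gave size factors as an alternative. The 4 members were named in every column. From 7 lists of pump-related genes (42 of 44 with a row), every beta and FXYD row was named, and in the other lists each gene at 10 CPM or more. Src, Egfr, Ppp1r1a and the Nkain and proton pump genes outside that rule were named after their values were seen. The members and lists were chosen with earlier results of these data known. With 1 group read, no test between conditions was made. Some planned genes and isoform shares are not reported here.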

Additional observations from a re-analysis of the deposited data

How the results depend on the processing

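No paired analysis was possible because the CKD columns, whose values do not match their gene labels, entered no comparison. The levels of the 4 members moved by less than 1 SD with TMM, with DESeq2 size factors and with totals over rows of at least 10 counts. Both scalings are centred on the column totals and rows under 10 counts hold few counts, so none could move a mean much. With totals that leave out the 100 highest rows the levels became 655 CPM for Atp1b1, 49.3 for Atp1b2, 107 for Atp1b3 and 501 for Fxyd1, since those rows hold much of each total. Leaving out each heart in turn gave 430 to 452, 31.7 to 34.6, 70.4 to 74.2 and 328 to 350 CPM, which cannot move a mean of 3 by 1 SD.

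Beta shares by length were 78.1% (principal transcript) and 78.8% (merged exons) for Atp1b1, and 5.36% and 4.50% for Atp1b2. For Atp1b3 they were 16.6%, 16.7% and, per kb of coding sequence, 14.3%. Summing the hearts, or dropping Atp1b4 with its 0 counts, moved no beta share by 1 SD, and leaving out a heart gave 79.8% to 81.4%, 5.72% to 6.43% and 12.9% to 13.8% for Atp1b1, Atp1b2 and Atp1b3. The ratio of Fxyd1 to the beta subunits was 2.49, 0.853 and 2.01 per kb of principal transcript, merged exons and coding sequence, shifts that follow from the lengths used. It was 0.768 against Atp1b1 alone, which has a smaller denominator, and 0.591 to 0.650 without a heart. The data were known when the merged exon and coding lengths were added. The BCV stayed within 1.5 times its value in 24 of 24 alternatives. Each estimate is pulled towards the trend, which for the members was 14.2% to 19.0% over these settings, so a larger move had little room. Without a heart it was 15.6% to 17.4% for Atp1b1, 13.3% to 16.1% for Atp1b2, 12.7% to 15.6% for Atp1b3 and 15.7% to 18.0% for Fxyd1.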
